A study of Homo sapiens with 46 samples.

Results

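MT-ND1, MT-ND2, MT-ND3, MT-ND4L, MT-ND4 and MT-ND5 are the 6 complex I mRNAs that human mitochondria transcribe from the heavy strand of their DNA. They were taken from the deposited gene counts by symbol, 6 of the 58735 genes listed and 6 of the 13 mRNAs of mitochondrial DNA (mtDNA). The other complex I mRNA of mtDNA, MT-ND6, is transcribed from the opposite strand. The study delivered chimeras into HEK293T cells, an immortalised line from human embryonic kidney (its methods name the line as HEK293-Flp-In T-Rex), to block the translation of one mitochondrial mRNA at a time. A chimera consists of the yeast pCox4 presequence, which is imported into mitochondria, and a morpholino, a synthetic oligomer that pairs with RNA and has no charge on its backbone. Cells received 2 µM of one chimera for 48 hours, aimed at ND1, ND2, ND3, ND4L, ND5, CYTB, COX1, COX2, COX3, ATP6 or ATP8. The control received the presequence in reaction buffer with no morpholino attached, so no condition carries an oligomer without a target. There are 46 libraries of these 12 conditions, 4 of each except COX2, which lacks replicate 1, and ND2, which lacks replicate 2. The lower replicate numbers, 1 and 2, belong to batch 1 and the higher, 3 and 4, to batch 2, which was prepared on another day with other reagents.

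Complex I, the entry point for electrons from NADH, couples electron transfer to proton pumping across the inner mitochondrial membrane, and its mtDNA-encoded subunits form the core of its membrane arm. ND2, ND4 and ND5 are the antiporter-like pumping subunits, ND1 lines the quinone-binding chamber where the membrane arm meets the peripheral arm, and ND3 and ND4L are small subunits of the connection between them. Their mRNAs are cut from a long polycistronic precursor, mostly at the tRNAs that lie between them, and receive short poly(A) tails. MT-ND4L and MT-ND4 stay together on one bicistronic mRNA.

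The 6 genes lie on the plus strand of chromosome MT in GRCh38 (GENCODE 29). MT-ND1 spans chrMT:3307-4262 and MT-ND2 spans chrMT:4470-5511, with 207 bases between them. MT-ND3 spans chrMT:10059-10404, MT-ND4L chrMT:10470-10766, MT-ND4 chrMT:10760-12137 and MT-ND5 chrMT:12337-14148. The frames of MT-ND4L and MT-ND4 share 7 bases. MT-ND6 begins at the base after the end of MT-ND5, on the minus strand (chrMT:14149-14673). For 4 of the 6 genes (MT-ND1, MT-ND2, MT-ND3 and MT-ND4) the annotated length is not a multiple of 3, and the last bases are ta for MT-ND1 and t for the other three, the stop codons that a poly(A) tail completes.

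The chimeras of the RNA-seq experiment were aimed at the first bases of 5 of the 6 mRNAs, and none was aimed at the start of MT-ND4. The stretches of mRNA that they face are shown because each comparison below turns on whether the mRNA carries the site. They were read from the GENCODE 29 transcripts at the positions in each chimera's name, counted from 1 at the first base of the annotated gene, and are printed 5′ to 3′ with bases of the start codon in capitals.
MT-ND1, positions 1 to 17, chrMT:3307-3323: ATAcccatggccaacct
MT-ND2, positions 12 to 29, chrMT:4481-4498: ggcccaacccgtcatcta
MT-ND3, positions 1 to 25, chrMT:10059-10083: ATAaacttcgccttaattttaataa
MT-ND4L, positions 6 to 30, chrMT:10475-10499: cctcatttacataaatattatacta
MT-ND5, positions 3 to 25, chrMT:12339-12361: Aaccatgcacactactataacca
All 5 sites are coding sequence. Those of ND1, ND3 and ND5 hold bases of the start codon, while those of ND2 and ND4L begin downstream of it. G and C make up 11 of the 18 bases of the ND2 site and 9 of the 17 of the ND1 site, but 5 of 25 in both the ND3 and the ND4L site and 9 of 23 in the ND5 site. The closest stretch of any other mtDNA mRNA differed from the ND1 site at 4 bases (in MT-ATP6), from the ND2 site at 6, from the ND4L site at 7 and from the ND3 and ND5 sites at 8.

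The libraries were made from poly(A)-selected RNA, and reads were counted per gene. Total counts ranged from 18876395 to 100698084 per library. COX3 replicate 4 alone exceeded 28121898. The 6 mRNAs took 1.31% ± 0.142 of the counts (SD, n = 46) and 32.3% ± 2.71 of those on mtDNA mRNAs. The lowest count of any of the 6 in any library was 8610 (MT-ND4L), so counting error is small beside the spread between replicates. PAX2, LIN28B, KRT8, KRT18 and VIM, listed as markers of HEK293T cells, were present in each library, and markers of blood, liver and heart cells (PTPRC, CD3E, HBB, ALB, TNNT2 and MYH6) did not exceed 0.533 CPM, the usual scale of counts relative to the library total, in any.

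Levels in control cells differed between the 6 mRNAs. Scaled to CPM per kilobase of gene, which puts genes of different length on one scale, MT-ND4 stood highest at 3636 ± 533 (SD, n = 4). MT-ND2 followed at 2185 ± 245 and MT-ND4L at 2048 ± 332. MT-ND1 was at 1619 ± 177, MT-ND3 at 1491 ± 135 and MT-ND5 at 1399 ± 162. MT-ND4 did not overlap with MT-ND2 in the control libraries, whereas each of the other neighbours in this order overlapped. Across all libraries MT-ND4 was the highest per kilobase in 43 of 46, and the exceptions were the 3 libraries of ND2 silencing, in which MT-ND2 was highest. MT-ND5 was the lowest in 32 of 46. The 2 frames of the bicistronic mRNA did not give equal values, since MT-ND4 exceeded MT-ND4L per kilobase in each library. MT-ND4L is 297 bases long and MT-ND4 1378, and how reads over their 7 shared bases were counted is not given. Whether the counting of so short a gene adds to this difference was not tested. Replicates of the second batch held more of most members. In libraries whose chimera was aimed elsewhere, the mean CPM of the second batch relative to the first was 1.23 for MT-ND4, 1.21 for MT-ND4L, 1.18 for MT-ND1, 1.16 for MT-ND3 and 1.13 for MT-ND2, but 0.963 for MT-ND5. A term for the batch was therefore part of each test, and each library is also given as percent of the control mean of its own batch.

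**Figure D1:**
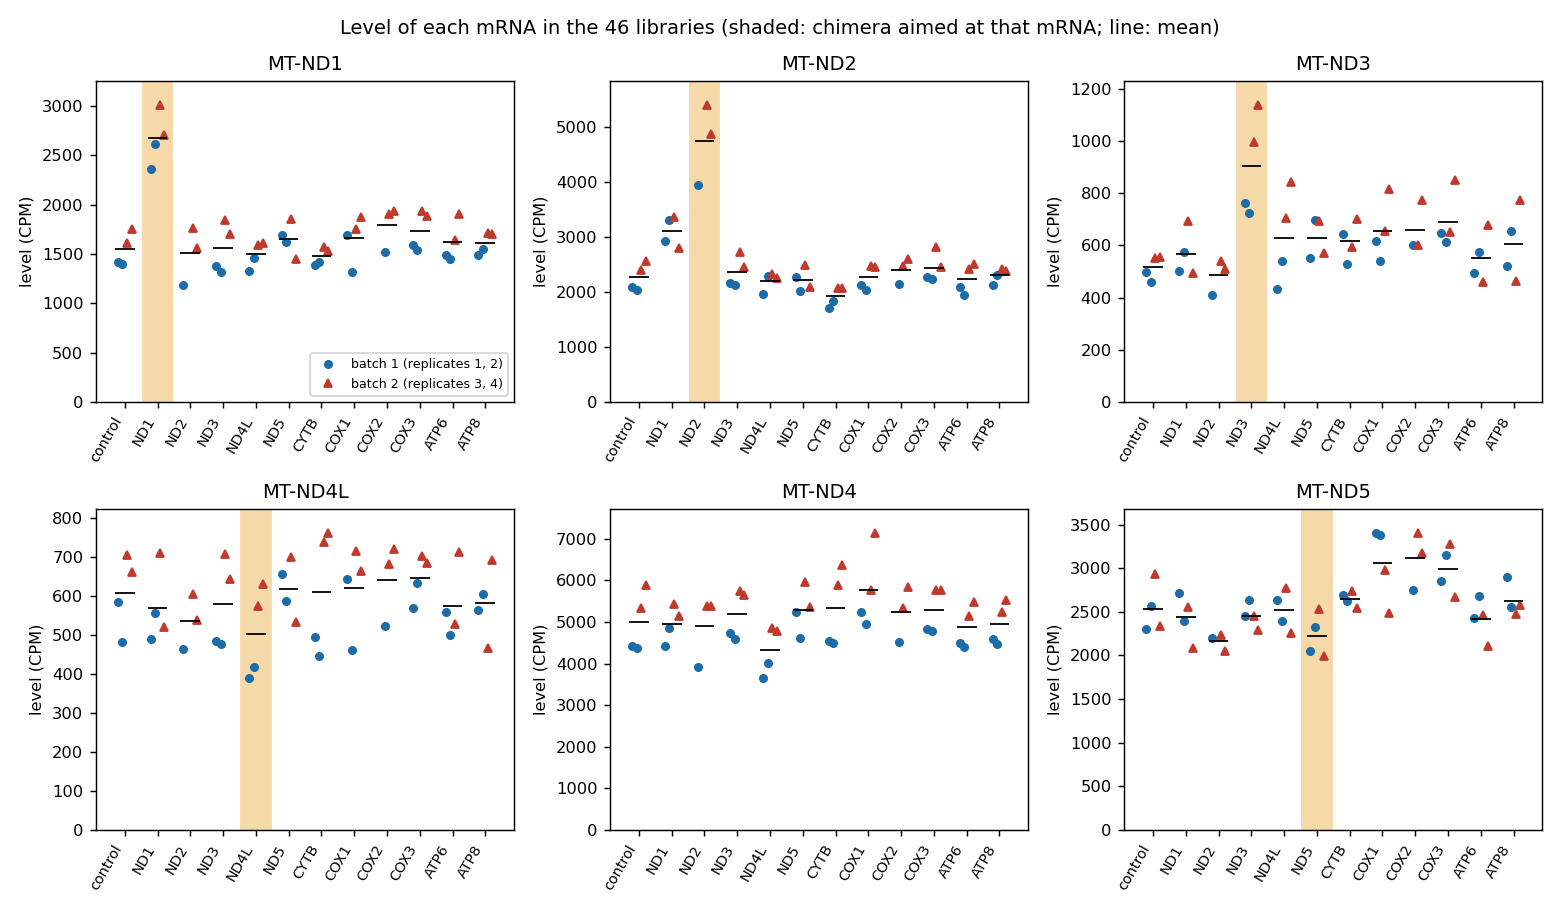
Level (CPM, linear axis from 0) of each of the 6 mRNAs in the 46 libraries by condition, with circles for batch 1, triangles for batch 2, a line at the mean of each condition and shading where the chimera is aimed at that mRNA. In the shaded column each library of MT-ND1 and MT-ND2 stands above all others, that of MT-ND3 has the highest mean but overlaps with 5 other libraries, those of MT-ND4L and MT-ND5 are not raised, and MT-ND4 has no shaded column.

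The first question was how the level of an mRNA changes when a chimera is aimed at it. MT-ND1, MT-ND2 and MT-ND3 rose upon silencing of their own translation, MT-ND2 by 2.03-fold, MT-ND3 by 1.74-fold and MT-ND1 by 1.73-fold. MT-ND4L and MT-ND5 lay lower in their own treatment, at 0.82-fold and 0.878-fold of the control, and neither passed the test. Thus 3 of the 5 targeted mRNAs were called altered, all of them higher, where 0.104% of all tests of the 11 treatments against the control were called higher. Changes are log2 fold changes on CPM with their SE, tested with edgeR's quasi-likelihood test across 20272 genes, and a gene is called at an adjusted p (Benjamini-Hochberg) under 0.05. In bulk RNA, fewer cells of a kind and less RNA per cell cannot be told apart.

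MT-ND1 was at 1424, 1397, 1613 and 1756 CPM in control replicates 1 to 4. With the ND1 chimera it was at 2358, 2614, 3014 and 2706 CPM in the same order. Every treated library lay above every control library, and above each of the 42 libraries not given this chimera, of which the highest held 1938 CPM. The change was 0.79 ± 0.068 (SE) on the log2 scale (edgeR, adjusted p = 3.5e-12), in a comparison in which 0.0888% of genes were called. As percent of the control of their batch the 4 libraries were at 167%, 185%, 179% and 161%.

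MT-ND2 gave 2093, 2034, 2412 and 2567 CPM in the control. ND2 silencing brought it to 3949 CPM in replicate 1, 5409 CPM in replicate 3 and 4874 CPM in replicate 4. Here too the groups did not overlap, and the highest of the 43 other libraries held 3375 CPM. The log2 change of 1.02 ± 0.066 (edgeR, adjusted p = 9.0e-17) had the lowest p of all genes in its comparison, in which 0.0247% of genes were called. Batch 1 is represented by 1 library of this treatment, at 191% of its batch control, and the 2 of batch 2 were at 217% and 196%.

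MT-ND3 was lower in abundance, at 496, 459, 551 and 557 CPM in the control. ND3 silencing brought it to 763, 725, 994 and 1138 CPM. All 4 libraries exceeded the controls, but 5 of the 42 libraries given another chimera or none exceeded the lowest of them. The log2 change was 0.80 ± 0.13 (edgeR, adjusted p = 0.0011), again with the lowest p of its comparison, in which 0.00987% of genes were called. Its mean was 156% of the control in batch 1 and 193% in batch 2. Within batch 1 alone (0.64, adjusted p = 0.074) and batch 2 alone (0.94, adjusted p = 0.083) the direction held and the call did not, and without the batch term the adjusted p was 0.35.

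MT-ND4L, which shares its mRNA with MT-ND4, gave 585, 481, 705 and 662 CPM in the control and 389, 418, 574 and 631 CPM with the ND4L chimera. The groups overlapped, although each treated library was below the control mean of its batch, at 73%, 78.4%, 83.9% and 92.3% of it. The log2 change of -0.29 ± 0.11, with a 95% interval of -0.51 to -0.060, did not pass the adjustment (edgeR, adjusted p = 0.22), in a comparison in which 0.148% of genes were called. After ND2 silencing, aimed elsewhere, MT-ND4L changed by -0.23 ± 0.12 (edgeR, adjusted p = 0.998). MT-ND4, the second frame of the targeted mRNA, was at 4428, 4384, 5337 and 5895 CPM in the control. With the ND4L chimera it was at 3648, 4015, 4858 and 4776 CPM. Each of these was below its batch control too (82.8% to 91.1%), for a log2 change of -0.21 ± 0.053 that missed the threshold (edgeR, adjusted p = 0.061). This change of MT-ND4 was called in 4 of 12 alternative settings, among them the replicate number as a block (adjusted p = 0.044). The counts of MT-ND4 per count of MT-ND4L were 8.76 ± 0.932 after ND4L silencing and 8.29 ± 0.837 in the control (SD, n = 4 each), a difference within the spread between replicates (exact two-sided permutation test, p = 0.43, where 0.029 is the smallest p that 4 against 4 allows).

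MT-ND5, the mRNA of the largest subunit among the 6, was at 2301, 2566, 2940 and 2336 CPM in the control and at 2055, 2327, 2533 and 1994 CPM with the ND5 chimera. Again the groups overlapped while every treated library lay below its batch control, at 84.4%, 95.6%, 96% and 75.6%. The log2 change was -0.19 ± 0.083, with a 95% interval of -0.36 to -0.019 (edgeR, adjusted p = 0.46), in a comparison in which 0.158% of genes were called. MT-ND6, which adjoins MT-ND5 on the opposite strand and is not the mRNA at which the chimera is aimed, fell in the same treatment (log2 change -0.42 ± 0.070, adjusted p = 0.00033). The use of strand in the counting is not given in the sources used here, so reads of these adjoining genes may not be fully apart. There were 5.52 ± 0.633 counts of MT-ND5 per count of MT-ND6 after ND5 silencing and 4.64 ± 0.421 in the control (SD, n = 4 each), a difference that an exact two-sided permutation test did not separate (p = 0.057). A lower level of MT-ND5 was not particular to the ND5 chimera. After ND2 silencing MT-ND5 was at 90.6%, 84.9% and 77.7% of its batch control. That log2 change was -0.22 ± 0.090 and was not called either (edgeR, adjusted p = 0.998).

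Setting each treatment against the mean of the other 10 treatments compares cells that all received a chimera. The control libraries are no part of this difference, but they stay in the fit and enter its estimates of the batch and of the spread. For an mRNA in a treatment aimed elsewhere, the reference mean includes the treatment in which it was the target. The 3 increases were called again (edgeR), with log2 changes of 0.99 ± 0.048 for MT-ND2 (adjusted p = 1.8e-22), 0.74 ± 0.047 for MT-ND1 (2.7e-17) and 0.57 ± 0.088 for MT-ND3 (0.00060). MT-ND4L was not called (log2 change -0.25 ± 0.085, adjusted p = 0.27). MT-ND5 was called lower at the edge of the threshold (log2 change -0.24 ± 0.063, adjusted p = 0.049). In that comparison 0.774% of genes were called, more than for any other treatment set against the rest. This call of MT-ND5 had the p of rank 156, where 157 genes were called. This call was lost when ND5 replicate 1 (-0.20, adjusted p = 0.24), 2 (-0.25, 0.095) or 4 (-0.19, 0.37) or control replicate 2 (-0.24, 0.057) or 4 (-0.24, 0.053) was left out. It held with the replicate number as a block (adjusted p = 0.0062). The call of MT-ND3 was lost without ND3 replicate 4 (0.49, adjusted p = 0.20).

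**Figure D2:**
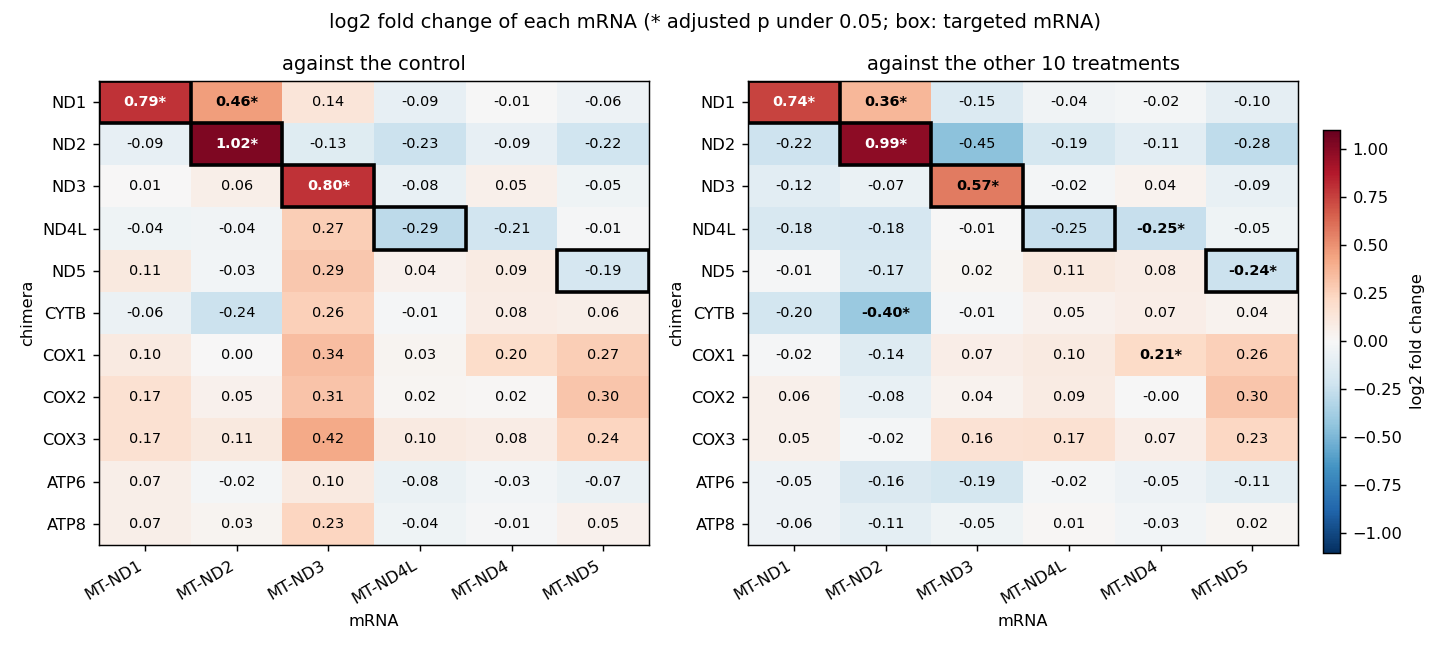
log2 fold change of the 6 mRNAs (columns) after each of the 11 chimeras (rows) against the control (left) and against the mean of the other 10 treatments (right), on one colour scale from blue (lower) to red (higher); asterisks mark an adjusted p under 0.05 and boxes the targeted mRNA. Of the 61 cells without a box, 1 is called on the left and 4 on the right.

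The share that each mRNA takes of the counts on the 6 together does not depend on how the libraries are scaled. MT-ND2 took 33% ± 0.75 (SD, n = 3) of them after ND2 silencing, against 18.2% ± 0.402 in the control and 14.8% to 23.2% in the 43 libraries without the ND2 chimera. MT-ND1 took 18.7% ± 0.915 after ND1 silencing (control 12.4% ± 0.369) and MT-ND3 took 6.88% ± 0.935 after ND3 silencing (control 4.14% ± 0.164; n = 4 each). After correction for the batch, these shares exceeded those of all libraries without the chimera by 14.99, 6.30 and 2.29 percentage points (exact two-sided permutation test over libraries, adjusted over 5 shares, p = 0.00022, 6.1e-05 and 0.00015). Before adjustment the p of the MT-ND2 share was 0.00013 and that of the MT-ND1 share 1.2e-05, each the smallest that the exact permutation test could give for its group sizes. The test treats all libraries without the chimera as interchangeable, although shares differed between conditions. The mean MT-ND2 share, for example, was 15.3% after CYTB and 21.7% after ND1 silencing. Against the 4 control libraries alone, so few that p has a floor, none of these shares passed (exact permutation test, adjusted p = 0.095 for MT-ND2, 0.071 for MT-ND1 and MT-ND3).

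The shares of the other targeted mRNAs were lower in their own treatment than in the control, without passing the test against all libraries without the chimera. MT-ND4L took 4.27% ± 0.651 after ND4L silencing and 4.85% ± 0.443 in the control, and differed from all libraries without the chimera by -0.25 percentage points (exact permutation test, adjusted p = 0.37). MT-ND5 took 17.6% ± 1.45 after ND5 silencing and 20.4% ± 2.49 in the control, and differed by -2.68 percentage points (exact permutation test, adjusted p = 0.061; 0.042 without ND5 replicate 3). Neither mRNA had its lowest mean share in its own treatment. After ND1 and ND2 silencing, where MT-ND1 or MT-ND2 took a larger share, MT-ND4L took 3.95% and 3.74% and MT-ND5 took 17.1% and 15.3%. After ND2 silencing MT-ND4L and MT-ND5 were also lower in CPM than in the control (log2 changes -0.23 and -0.22, edgeR, neither called). In their own treatment both passed the exact permutation test as shares of the counts on all 13 mtDNA mRNAs, MT-ND4L by -0.23 percentage points (adjusted p = 0.0057) and MT-ND5 by -1.30 (adjusted p = 0.0028). The libraries they were set against include those of COX1 silencing, where MT-CO1 fell and the 6 mRNAs together took a larger share of these counts. The 6 mRNAs together made up 30.7% ± 1.06 of the counts on mtDNA mRNAs in the control. They made up 36.1% ± 1.17 after ND2 silencing and 35% ± 0.999 after ND1 silencing, and the lowest mean of the 12 conditions, 28.9% ± 1.00, followed ND4L silencing. The highest mean was that after COX1 silencing, 37.5% ± 1.41, where MT-CO1, the most abundant mtDNA mRNA of the control, fell (log2 change -1.33).

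Outside the 5 tests of an mRNA in the treatment named for it, 1 of 61 tests against the control was called (edgeR), where 0.171% of all tests of the 11 treatments were called, and 16 of 61 had an unadjusted p under 0.05. The 61 include MT-ND4 after ND4L silencing, described above, where the chimera is aimed at the first frame of the same mRNA. Their log2 changes ranged from -0.24 to 0.46 with a median of 0.043, while the median over all genes tested lay between -0.0032 and 0.0040 in the 11 comparisons. The call was MT-ND2 after ND1 silencing. MT-ND2 is the next mRNA downstream of MT-ND1, with tRNA genes between them, and gave 2932, 3319, 3375 and 2807 CPM with the ND1 chimera. All 4 values exceeded the highest control library, and they were at 142%, 161%, 136% and 113% of their batch control. The log2 change was 0.46 ± 0.062 (adjusted p = 6.4e-06) against the control and 0.36 against the other treatments (adjusted p = 3.9e-07). The mean was 151% of the control in batch 1 and 124% in batch 2, and the call was not reached within batch 2 alone (log2 change 0.31, adjusted p = 0.14) or without the batch term (0.45, adjusted p = 0.17). In the reverse direction, MT-ND1 after ND2 silencing changed by -0.09 against the control and was not called. All 5 members not targeted by the ND2 chimera lay below the control after ND2 silencing, with log2 changes from -0.23 to -0.09. Of these, 1 had an unadjusted p under 0.05. Against the other treatments all 5 were lower with an unadjusted p under 0.05 (edgeR), at ranks 10 to 922 of the 20272 genes, and none was called. With the replicate number as a block, where 0.400% of all tests were called, 4 of 61 were: MT-ND2 after ND1, MT-ND2 after CYTB (log2 change -0.24, adjusted p = 0.030), MT-ND4 after ND4L and MT-ND5 after COX2 silencing (0.31, adjusted p = 0.022). DESeq2, which called 0.977% of all tests, called 3 of 61, of which 2 were of MT-ND2 and 1 of MT-ND4. Leaving out control replicate 1 added MT-ND2 after CYTB silencing, and leaving out control replicate 3 added MT-ND5 after COX2 silencing.

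**Figure D3:**
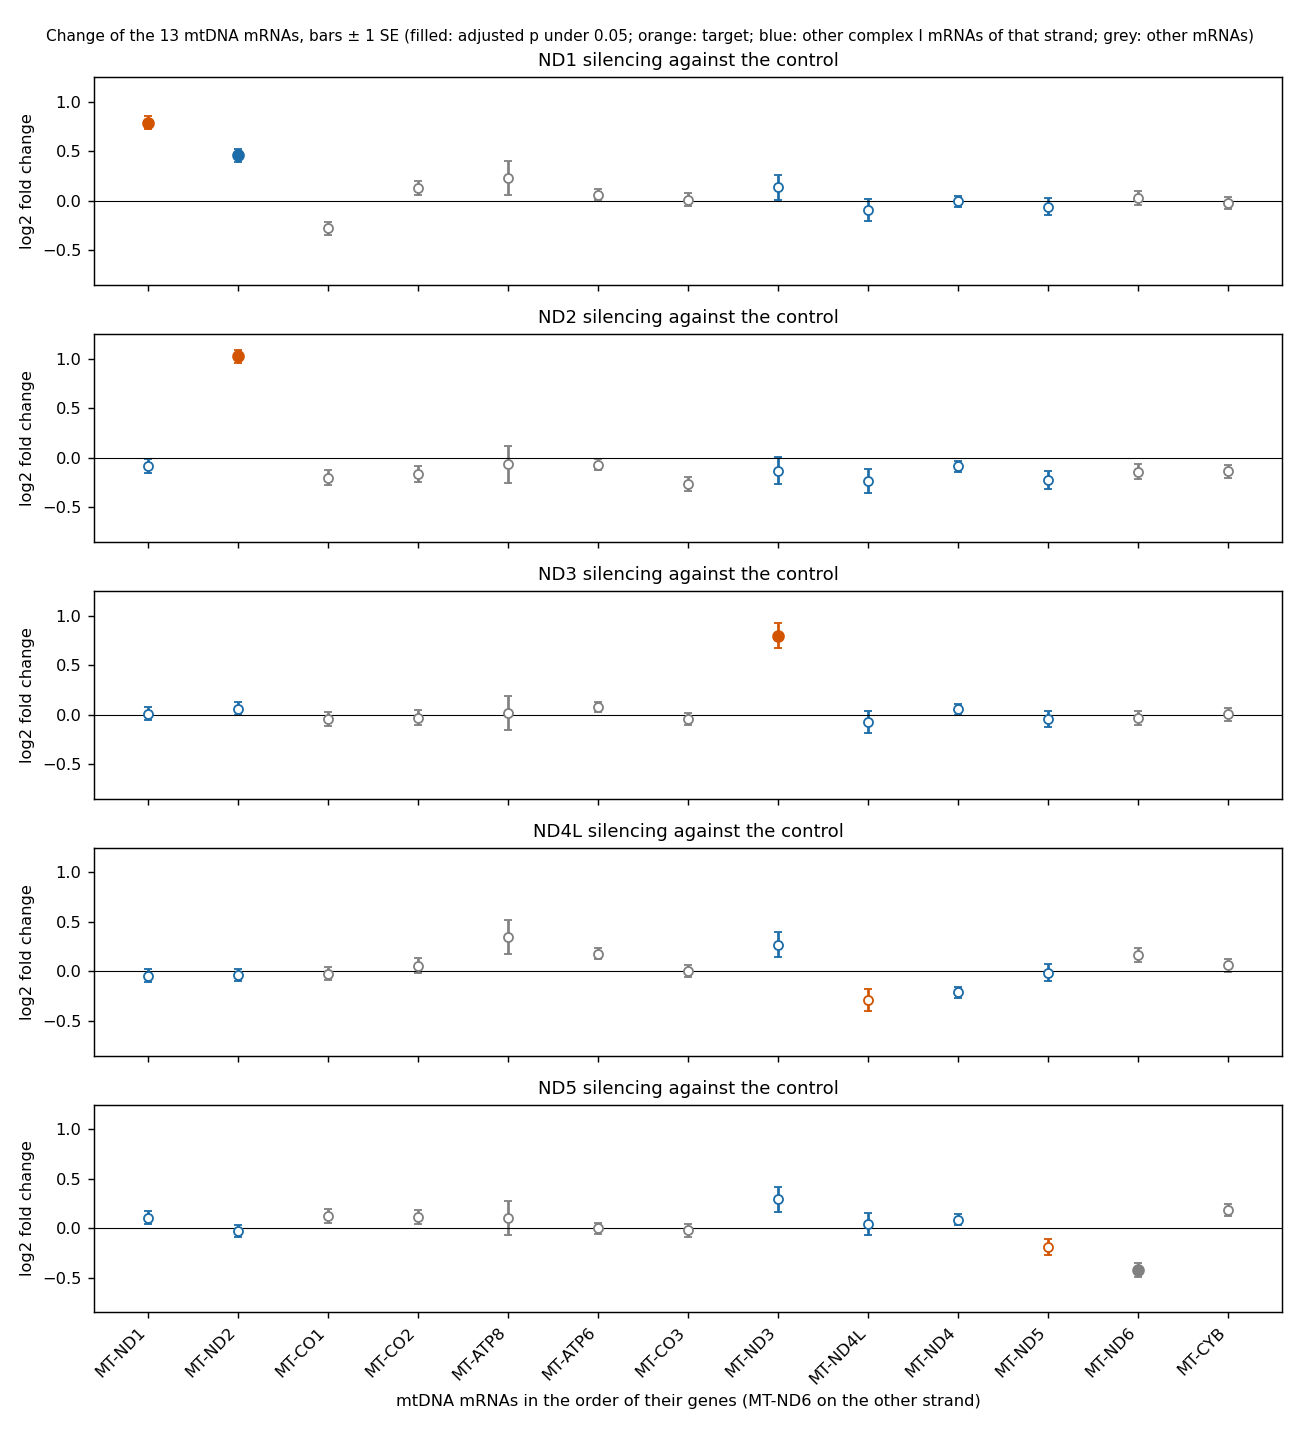
log2 fold change against the control (points, bars ± 1 SE) of the 13 mtDNA mRNAs in the order of their genes, for the 5 chimeras aimed at complex I mRNAs of the heavy strand; filled points have an adjusted p under 0.05, orange marks the target, blue the other heavy-strand complex I mRNAs and grey the remaining mRNAs. Upon ND1 silencing MT-ND2 rose with MT-ND1, upon ND2 and ND3 silencing no other mRNA was called, and upon ND5 silencing the one filled point is MT-ND6.

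Against the other 10 treatments, 8 of 66 tests of the 6 mRNAs were called, 5 higher and 3 lower, where 0.0991% of all such tests were called. Targets in the treatment named for them made up 4 of these calls. The other 4 were MT-ND2 after ND1 silencing, MT-ND2 after CYTB silencing, MT-ND4 after COX1 silencing, and MT-ND4 after ND4L silencing, where it is the second frame of the targeted mRNA. MT-ND2 after CYTB silencing was lower, by a log2 change of -0.40 (adjusted p = 2.1e-07) against a reference that holds the ND2 and ND1 treatments, in which MT-ND2 rose, with 1712, 1847, 2070 and 2071 CPM. These are 83% to 89.5% of the batch controls, and the change against the control itself was smaller and not called (-0.24, adjusted p = 0.051). That change against the control was called in 6 of 12 alternative settings. MT-ND4 was lower after ND4L silencing (-0.25, adjusted p = 0.0017), a call lost without ND4L replicate 1 (-0.22, adjusted p = 0.069). After COX1 silencing MT-ND4 was higher (0.21, adjusted p = 0.0045), at 5230, 4949, 5760 and 7153 CPM. The last of these stood apart, and the call was lost without COX1 replicate 4 (0.14, adjusted p = 0.69) or replicate 1 (0.20, adjusted p = 0.14). Counting with the replicate block gave 12 calls of 66, where 0.177% of all tests were called, and the additional ones were MT-ND5 after COX1, COX2 and COX3 silencing and MT-ND2 after ND5 silencing (log2 change -0.17, adjusted p = 0.033). The reference for this MT-ND2 value is again raised by the ND2 and ND1 treatments, and against the control, without the block, MT-ND2 after ND5 silencing changed by -0.03 (adjusted p = 0.92).

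When another mRNA was targeted, MT-ND1 changed by -0.09 to 0.17 on the log2 scale against the control, MT-ND4L by -0.23 to 0.10 and MT-ND4, the ND4L treatment apart, by -0.09 to 0.20. MT-ND3 lay above the control in 9 of 10 treatments aimed elsewhere, with changes from -0.13 to 0.42. None of these was called by edgeR as described above or by DESeq2. In edgeR 6 of 10 had an unadjusted p under 0.05, a count without its share over all genes. In other edgeR fits 5 of 10 were called when each fit held only the libraries compared, where 0.828% of all tests were called, and 7 of 10 without a filter on low counts, where 0.416% were. With the 13 mtDNA mRNAs as library size MT-ND3 after COX1 silencing was called (0.45, adjusted p = 0.044), where 47 of 20235 genes were called. MT-CO1, part of that library size, fell from 12002 to 4774 CPM in this treatment, which raises the other values scaled by it. All 10 comparisons share the 4 control libraries, in which MT-ND3 spanned 459 to 557 CPM. COX3 silencing gave its highest untargeted level, 648, 611, 651 and 850 CPM, the last in the library of 100698084 counts (log2 change 0.42 ± 0.13, edgeR, adjusted p = 0.15). Without that library the change was 0.35 (adjusted p = 0.35). Against the other treatments the change with all 4 libraries was 0.16. MT-CO3 is the mRNA directly upstream of MT-ND3, separated from it by a tRNA gene, and fell in this treatment (-0.49 ± 0.065, adjusted p = 1.0e-05).

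MT-ND5, where untargeted, was called in 0 of 10 treatments against the control (edgeR and DESeq2). In edgeR 4 of 10 had an unadjusted p under 0.05, again without the share over all genes. The lowest untargeted mean of MT-ND5, 2165 CPM, followed ND2 silencing, and its highest means were in the treatments aimed at complex IV subunits. COX2 silencing gave 2754, 3411 and 3174 CPM (log2 change 0.30 against the control, adjusted p = 0.092) and COX3 silencing gave 2858, 3155, 3275 and 2675 CPM (0.24, adjusted p = 0.24). After COX1 silencing the values were 3401, 3383, 2983 and 2490 CPM (0.27, adjusted p = 0.36), of which those of batch 1 were at 140% and 139% of the control and those of batch 2 at 113% and 94.4%. The COX1 and COX2 groups overlapped with the control, as did that of COX3. In batch 1 alone the COX1 difference from the control was called (0.47, adjusted p = 0.0026), and in batch 2 alone it was 0.05 and not called. With the replicate block the COX2 difference from the control was called (0.31, adjusted p = 0.022). Against the other treatments, all 3 differences passed with the block (edgeR, adjusted p = 0.0046 for COX1, 0.0087 for COX2 and 0.034 for COX3), and without it they did not (0.087, 0.15 and 0.24).

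The genes whose levels followed each mRNA most closely were sought by the Pearson r of log2 CPM over the 46 libraries after correction for the batch, among 10430 genes with a mean of at least 10 CPM. The libraries share treatments and depth, so r is given as a description. MT-ND4L and MT-ND4, the frames of one mRNA, were nearest to each other (r = 0.62). Next to MT-ND4 came MT-CO2 (0.62) and the tRNA gene MT-TC (0.60), and next to MT-ND4L came UBE2E1 (0.58) and C20orf96 (0.58). For MT-ND5 the nearest were MT-ND6 (0.72) and the tRNA gene MT-TP (0.67), both encoded on the opposite strand, and then KIFC3 (0.60). MT-ND1 had no mtDNA gene among its nearest, which were TMPO-AS1 (0.62), PRDX6 (0.59) and PSMB2 (0.58), and neither had MT-ND3, with NDUFB1 (0.53), a nuclear complex I subunit, RPL38 (0.53) and PPIAP22 (0.52).

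**Figure D4:**
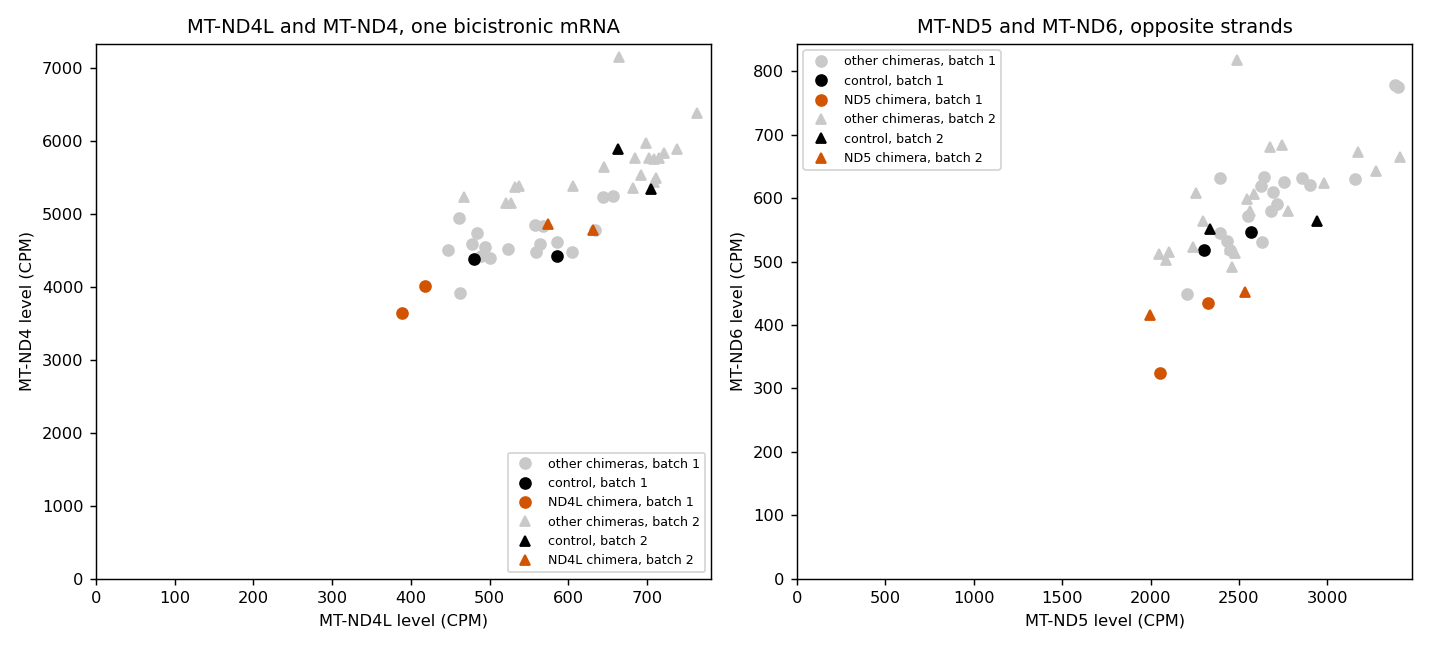
Level (CPM, linear axes from 0) of MT-ND4 against MT-ND4L (left) and of MT-ND6 against MT-ND5 (right) in the 46 libraries, with the control in black, the chimera aimed at MT-ND4L or MT-ND5 in orange, all others in grey, circles for batch 1 and triangles for batch 2. Libraries of the ND4L chimera lie lowest on the MT-ND4L axis in batch 1 and lowest on the MT-ND4 axis in batch 2, and those of the ND5 chimera lie lower on the MT-ND6 axis than the control libraries.

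For MT-ND2 the nearest gene was MTND2P28 (r = 0.94), a nuclear copy of MT-ND2 on chromosome 1 (chr1:629640-630683). Its counts came to 5.07% of those of MT-ND2 over all libraries, against at most 0.0244% for the highest pseudogene of each other member. It was higher in the same treatments, by 1.15 after ND2 silencing (edgeR, adjusted p = 1.8e-16) and 0.54 after ND1 silencing (6.4e-06) on the log2 scale, and also by 0.33 after COX3 silencing (0.019). Reads of the mRNA and of this copy may not be told apart, so the values of both are uncertain to that extent. Adding pseudogene counts to the 6 mRNAs, an alternative chosen after seeing the data, changed none of the calls given above.

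The remaining genes of the pathway were read from lists chosen with earlier results of these data known. Of the 7 other mtDNA mRNAs, 6 of 77 tests against the control were called, 1 higher and 5 lower, where 0.104% of all tests were called higher and 0.0664% lower. The lower ones were MT-CO1 after COX1 (-1.33), MT-CO3 and MT-ATP6 after COX3 (-0.49 and -0.33), MT-CYB after CYTB (-0.33) and MT-ND6 after ND5 silencing. MT-ND6 rose after COX1 silencing (0.46, adjusted p = 8.2e-05). Among 37 nuclear complex I subunits 1 of 407 tests was called, NDUFS6 after ND4L silencing (log2 change 0.53 ± 0.11, edgeR, adjusted p = 0.019), where 0.171% of all tests were called, so this single call is not read as a change of the subunits. None of the tests of 19 complex I assembly factors (209) or of 22 genes of mitochondrial mRNA synthesis and turnover (242) was called. The median log2 change per treatment lay between 0.028 and 0.16 for the nuclear subunits, between 0.012 and 0.11 for the assembly factors and between -0.068 and 0.046 for mRNA synthesis and turnover.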

How the data were processed

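RNA-seq of 46 libraries of HEK293T cells was analysed from 1 table of raw gene counts that the authors deposited, together with their gene lengths, whole numbers of bases that scaled levels per kilobase and are listed as another unit. Per the labels, the authors used a GRCh38.p12 genome, R 4.3.0, DESeq2 1.40.2 and limma 3.56.2. How reads were aligned and counted, and whether by strand, is not given in the sources used here, and the study's methods and the sample records differ on paired or single-end reads. Groups, replicates and batches came from the labels and the study's methods. Of the 58735 genes, 20272 passed edgeR's filterByExpr (minimum count 10). Libraries were scaled by TMM and fitted in edgeR 4.0.16 (R 4.3.3) with a term for each of the 12 conditions and for the batch. Each treatment was set against the control and against the mean of the other 10 treatments, with Benjamini-Hochberg adjustment. CPM and fold values were computed here from the deposited counts, and log2 CPM for correlations carries a prior count of 2.

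On simulated counts of an ND1 against control comparison over 19769 genes, 195 of 200 changed genes were called. The sign was wrong in 0, and 13 genes without a change were called too. Recovery was counted over all 200 genes together, not by size of difference. Whether differences as small as those of targeted MT-ND4L and MT-ND5 would be called was not tested. The 66 replicate pairs differed by more than sampling noise (chi-square per degree of freedom 3.47 to 24.8). The study's methods call the replicates biological and give separate days for the batches only. Libraries of the same replicate number deviated together (mean r 0.514 over 242 pairs, lowest 0.168). The mean r was 0.445 over 243 pairs of the same batch with another number, and -0.48 between batches. These deviations were taken from the condition means with the batch left in. Both sets of pairs within a batch therefore carry the batch. Pairs of the same number had the higher mean, but the ranges of these sets overlapped, and a pairing by number was not tested. The replicate number was also fitted as a block, as an alternative, in which 0.400% of all tests against the control were called, against 0.171% with the batch term. Shares were tested by exact permutation in scipy. The 6 mRNAs and the gene lists were chosen with earlier results of these data known. Genes were named by rule: the 6 mRNAs in all conditions, up to 3 called genes of lowest p per list and treatment, the 3 most alike genes of each mRNA and its highest pseudogene. Alternatives were no batch term, the replicate block, RLE size factors, library sizes from nuclear genes or from the 13 mtDNA mRNAs, no filter, a minimum count of 50, DESeq2 1.42.0, only the libraries compared, each batch alone and leaving out each replicate.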

Additional observations from a re-analysis of the deposited data

Results flagged for a closer look

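Among 60 groups of 4 libraries (each mRNA in each condition with 4), 1 held a library far from the others, where chance gives about 1 in 20 groups. MT-ND3 in COX3 replicate 4 stood at 850 CPM, while the nearest of the other 3 libraries was at 651 CPM and the lowest at 611 CPM, so that the gap was 0.835 of the whole range (Dixon's critical value 0.829). This library also has the highest total count of the series, 100698084. Without it the log2 change of MT-ND3 after COX3 silencing against the control was 0.35 (edgeR, adjusted p = 0.35), against 0.42 (adjusted p = 0.15) with it.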

How the results depend on the processing

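Recomputed under the alternatives, 763 of 863 values kept their direction and side of the threshold and 0 reversed. MT-ND1 and MT-ND2 in their own treatment were called in each alternative and without each replicate. MT-ND3 was not called without the batch term (0.81 against the control, 0.58 against the other treatments), in batch 1 alone (0.64 and 0.43) or, against the control, in batch 2 alone (0.94). Leaving out a replicate moved its change against the other treatments between 0.49 and 0.63. MT-ND4L was called lower without a filter (-0.29 and -0.26) and, against the control, with only the libraries compared (-0.29). MT-ND5 was called against the control without a filter (-0.18) and not called against the other treatments without the batch term (-0.24) or in batch 2 alone (-0.18), with -0.32 to -0.19 on leaving out a replicate. The cause was not tested.

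Untargeted calls against the control numbered 1 in the report, in whose fit 16 tests had an unadjusted p under 0.05, a count without its share over all genes. They were 0 without the batch term and in batch 2 alone. With library sizes from nuclear genes and in batch 1 alone they were 2, and with DESeq2 and the batch term 3. They were 4 with the replicate block, 5 with the 13 mtDNA mRNAs as library size and 9 with only the libraries compared. Without a filter there were 18, and on leaving out a replicate 1 to 2. Calls against the other treatments, 8 in the report, were 3 without the batch term, 4 in batch 2 alone and 26 without a filter. The replicate block changed no call of a targeted mRNA. Shares against the 4 control libraries alone differed by 6.26 (MT-ND1), 14.8 (MT-ND2) and 2.75 (MT-ND3) percentage points, and did not pass the exact permutation test (adjusted p = 0.071, 0.095 and 0.071), in which 4 against 4 cannot go below 0.029 and 3 against 4 cannot go below 0.057. As shares of the 13 mtDNA mRNAs MT-ND4L (-0.23) and MT-ND5 (-1.30) passed, set against libraries that include those of COX1 silencing. Leaving out a replicate moved the share of MT-ND5 between -3.33 and -1.72. COX2 and ND2 have 1 library in batch 1, which limits the values of that batch alone.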
